A study of Mus musculus with 4 samples.

Results

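Among the cells sorted from regenerating mouse muscle, 602 of 16519 barcodes were placed in a class of progenitors in G2 and mitosis. Members were chosen by a score, the summed unique molecular identifiers (UMIs, 1 per captured mRNA molecule) of Cenpf, Cdc20, Ccnb1, Ube2c, Hmmr, Tpx2 and Aspm per 10000 UMIs of the cell. The score was computed in 6025 gated cells, which had at least 5000 UMIs and 1000 detected genes, at most 10% mitochondrial UMIs, no Cd74 UMI and fewer than 2 Myog UMIs per 10000, and the top 10% of the score over all libraries formed the class. The lowest member scored 16.07, the next one 16.08 and the highest cell outside 15.93 UMIs per 10000. Within 10% of that limit lay 48 members and 54 other cells, so the class is a range of a continuous score and not a separate type.

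The 4 libraries came from 12-week-old male mice, 6 days after cardiotoxin was injected into the tibialis anterior, and each pooled the muscles of 3 mice. Cells were sorted as α7 integrin+ and CD45-/CD31-/Sca1-, a gate for myogenic cells. Both groups carried a Pax7 Cre, which is not inducible and acts throughout the Pax7 lineage. The 2 Pax7Cre libraries were the control, and in the 2 miR-501KO libraries (Pax7CremiR-501fl/Y) Cre removed the floxed X-linked miR-501 precursor. A mature miRNA is not read by this assay, so its loss could not be checked in these files. Replicates 1 and 2 of each group belonged to run 1 and run 2. The deletion removes the precursor of both mature arms, which are shown here because they define the genotype, with the seed (bases 2 to 8) in capitals. RefSeq (GRCm38.p6) places the 3p arm at chrX:7241270-7241291 and the 5p arm at chrX:7241307-7241328, both on the minus strand.
mmu-miR-501-3p: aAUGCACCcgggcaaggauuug
mmu-miR-501-5p: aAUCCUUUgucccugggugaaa

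After DNA replication a cell passes through G2, when cyclin A and cyclin B with CDK1 prepare and start mitosis, and the anaphase-promoting complex then destroys cyclin B and securin so that sister chromatids part. Genes of this programme are held off in resting cells and are switched on late in the cycle by complexes of B-MYB, FOXM1 and NF-Y, which read CHR elements and CCAAT boxes near the start of transcription. Muscle stem cells rest outside the cycle, enter it after injury, and leave it again when Myog, the differentiation factor, comes up.

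The promoters of the score genes are shown because these genes define the class. RefSeq held an entry for 6 of the 7 (Tpx2 had none), here from 100 bases before to 20 bases after the start, 5′ to 3′ on the gene's strand, GRCm38.p6. Capitals mark TTTGAA or TTTAAA, the CHR letters, and CCAAT, each searched on both strands (TTCAAA and ATTGG on the other strand). The motifs did not overlap one another in these windows.
Cenpf, chr1:189688067-189688186, minus strand: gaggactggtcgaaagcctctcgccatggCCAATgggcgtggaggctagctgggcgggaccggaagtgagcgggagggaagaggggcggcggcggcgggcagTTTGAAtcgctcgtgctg
Cdc20, chr4:118437324-118437443, minus strand: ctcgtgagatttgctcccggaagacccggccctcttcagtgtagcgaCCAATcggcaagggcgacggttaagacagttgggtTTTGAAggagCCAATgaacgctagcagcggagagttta
Ccnb1, chr13:100786467-100786586, minus strand: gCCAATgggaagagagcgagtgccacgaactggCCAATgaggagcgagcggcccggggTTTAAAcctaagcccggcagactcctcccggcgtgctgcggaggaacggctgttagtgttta
Ube2c, chr2:164769829-164769948, plus strand: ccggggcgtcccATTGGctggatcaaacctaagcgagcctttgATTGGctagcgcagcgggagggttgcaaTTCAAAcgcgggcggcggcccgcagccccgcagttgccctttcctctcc
Hmmr, chr11:40733418-40733537, minus strand: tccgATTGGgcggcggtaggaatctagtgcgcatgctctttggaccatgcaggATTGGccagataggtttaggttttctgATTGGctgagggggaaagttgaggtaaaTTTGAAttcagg
Aspm, chr1:139454673-139454792, plus strand: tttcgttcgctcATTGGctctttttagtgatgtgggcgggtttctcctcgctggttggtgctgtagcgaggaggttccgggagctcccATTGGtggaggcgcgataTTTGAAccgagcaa

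All 6 windows held CHR letters together with CCAAT. The motif TTTGAA stood in 5 and TTTAAA in Ccnb1. The CHR letters began 18 bases before the start in Cdc20, 29 before it in Ube2c and 42 before it in Ccnb1, and at base 3, 7 and 9 of the transcript in Cenpf, Aspm and Hmmr. Of all 32851 promoter windows of this length, 11.1% held either CHR motif, 20.8% held CCAAT and 2.25% held both kinds. The rule did not use sequence, nor did it use the 82 genes of 5 mitotic lists (entry into mitosis, chromosome condensation, kinetochore and checkpoint, spindle and cytokinesis, mitotic exit), of which 68 had a promoter entry. There, CHR letters were found in 30 (44.1%), CCAAT in 39 (57.4%) and both in 24 (35.3%). Among 22 DNA replication promoters, CHR letters stood in 2 (9.09%) and CCAAT in 13 (59.1%). In the 6 promoters found for myogenic progenitor genes neither motif was present. These are matches of letters and not sites of measured binding.

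The class took 243, 115, 113 and 131 cells from Pax7Cre replicates 1 and 2 and miR-501KO replicates 1 and 2. Its cells were large in RNA content, with median UMI counts of 44302, 51409, 43851 and 45459 in the same order, against 28304, 32285, 28826 and 26385 in the other gated cells. The ratio of these medians lay between 1.52 and 1.72 in the 4 libraries. As a second reference, S-phase comparison cells were taken as the gated cells in the top 10% of a 12-gene replication score and outside the class (582 cells, median 38807 UMIs). These 582 cells are also part of the other gated cells, which are all gated cells outside the class. Only 20 members were also in the top 10% of that replication score. The class held 19392698 UMIs in the 2 Pax7Cre libraries together and 11912827 in the 2 miR-501KO libraries.

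Members were checked against cell type markers. At least 3 of 12 myogenic progenitor markers were present in 588 of 602 members, and 569 held a UMI of Pax7, Myf5 or Myod1. At least 3 markers of macrophages were found in 17 members, of fibroblasts and tenocytes in 11, of Schwann cells in 11 and of endothelial cells in 1, and 38 members met any of these. The 11 Schwann-marked members fell as 1, 1, 3 and 6 over the libraries in the order above. Mural markers do not separate cells here, since 271 members and 1806 of the other 5423 gated cells held at least 3, with Acta2 the most abundant of them. Of 16519 barcodes, 46 occurred in more than 1 library, 4 of them in members. Members with more than 3 times their library's median UMI count numbered 50, which is not a count of doublets. No doublet caller was run.

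The score genes themselves are given as a description, since they chose the members. Ube2c (ENSMUSG00000001403), the ubiquitin-conjugating enzyme of the anaphase-promoting complex, and Cenpf (ENSMUSG00000026605), a kinetochore and nuclear matrix protein, supplied 29.8% and 27.02% of the score UMIs. Ube2c stood at 9.96, 10.4, 7.99 and 10.3 UMIs per 10000 in the 4 libraries of the class. Cenpf stood at 7.75, 9.79, 9.63 and 9.51 UMIs per 10000. Tpx2 (ENSMUSG00000027469), which activates Aurora A at the spindle, gave 10.4%, Ccnb1 (ENSMUSG00000041431), cyclin B1, gave 9.46%, and Cdc20 (ENSMUSG00000006398), the activator of the anaphase-promoting complex, gave 9.21%. Hmmr (ENSMUSG00000020330) and Aspm (ENSMUSG00000033952), both spindle proteins, gave 8.03% and 6.05%. All 7 genes were detected in 557 of the 602 members, and at least 5 of them in 591.

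Genes outside the score were then compared between the class and the other gated cells within each library. Because the cells were chosen by genes of the same programme, these values describe the class and carry no test. Of 3283 genes at 0.5 UMIs per 10000 or more on average in either set, 145 (4.42%) were at least 2-fold higher in the class in all 4 libraries and 15 (0.457%) were at least 2-fold lower. Of the 67 genes of the 5 mitotic lists at that level, 62 were at least 2-fold higher and none was 2-fold lower. The 21 spindle and cytokinesis genes and the 14 kinetochore and checkpoint genes at that level were all among the 62.

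Genes with the largest ratios act late in the cycle. Gas2l3, a linker of actin and microtubules in the late mitotic cell, was 11.5- to 19.9-fold higher in the class than in the other gated cells, and Cenpe, the kinetochore motor, 11.3- to 16.3-fold. Aurka (Aurora A, the centrosomal kinase) was 10.6- to 19.4-fold higher and Nek2, a kinase of centrosome separation, 10.2- to 18.2-fold. Plk1, the polo kinase that drives entry into mitosis, was 9.32- to 19.8-fold higher. Kif2c, Nusap1, Dlgap5, Kif14, Prr11, Pimreg, Depdc1a, Kif20b and Kif23, among them kinesins and spindle-binding proteins, were also among the 15 largest ratios, with a ratio in the library nearest to 1 of 8.23 or more. CHR letters stood in 7 of the 12 promoters found for these 15 genes.

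At the other end were genes of muscle fibres and of matrix cells. Ogn, a matrix proteoglycan, was at 0.0654 to 0.160 of its level in the other gated cells. The fibre genes Tnnc2, Acta1, Mylpf, Ckm and Myl1 were at no more than 0.328 of that level in the library with the ratio nearest to 1. Gpx3, Apoe, Mxd4 (an antagonist of Myc) and Kdm5b closed this list. The summed level of the differentiation and fusion list was 7.41, 6.19, 8.08 and 7.69 UMIs per 10000 in the class. In the other gated cells it was 11.5, 57.2, 47.8 and 17.7, so this list varied far more between libraries in the other gated cells than in the class.

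**Figure D1:**
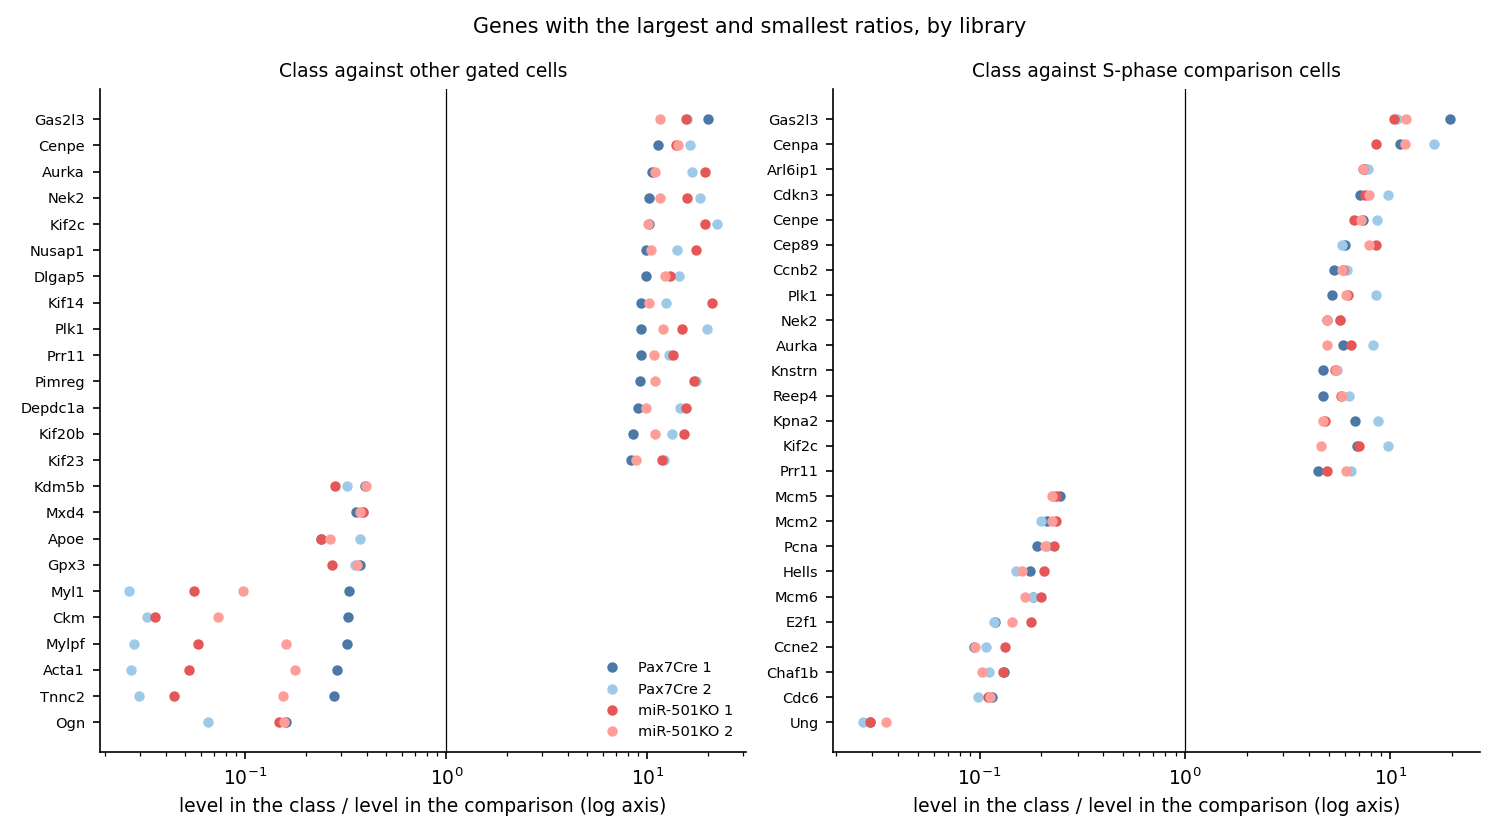
Ratio of a gene's level (UMIs per 10000) in the G2/M class to its level in the other gated cells (left) or in the S-phase comparison cells (right), on log axes, with 1 point for each library. The largest ratios to the other gated cells begin with Gas2l3 at 11.5 to 19.9, and the fibre genes spread most between libraries.

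Against the S-phase comparison cells the class was set apart by fewer genes in one direction and more in the other. Of 3300 genes, 69 (2.09%) were at least 2-fold higher in the class in all 4 libraries and 56 (1.7%) were at least 2-fold lower. Of the 56, 10 belong to the score that chose the S-phase cells. Of the 67 mitotic list genes, 40 were 2-fold higher, including 19 of 21 spindle and cytokinesis genes and only 2 of 11 chromosome condensation genes. Cenpa, the centromeric histone H3 variant, was 8.54- to 16.2-fold higher than in the S-phase cells. Arl6ip1, an endoplasmic reticulum protein, was 7.34- to 7.74-fold higher, and Ccnb2, cyclin B2, 5.29- to 6.14-fold. Cdkn3, a phosphatase of CDKs, was 7.11- to 9.71-fold higher.

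Replication genes lay on the other side. Ung, the uracil-DNA glycosylase that clears uracil from new DNA, was at 0.0269 to 0.0351 of its level in the S-phase cells, the lowest ratio of all. Cdc6 and Mcm6, which license origins, were at 0.0985 to 0.116 and at 0.167 to 0.199. Chaf1b, Ccne2, E2f1, Hells, Pcna, Mcm2 and Mcm5 completed the 10 smallest ratios, and 22 of the 26 DNA replication genes were at least 2-fold lower in all 4 libraries. The summed DNA replication list stood at 15.6, 16.3, 16.2 and 15.9 UMIs per 10000 in the class. In the S-phase cells it was 47.1, 49.6, 45.7 and 48.5, and in the other gated cells 15.8, 14.9, 12.8 and 16.8. The replication level of the class thus overlapped that of the other gated cells with the S-phase cells counted among them. The level of the other gated cells without the S-phase cells was not computed, so the overlap does not place the class beside non-replicating cells. The 12 genes of the score that chose the S-phase cells are all in the DNA replication list. Among them are Rrm2, Dut, Tyms, Pcna, Hells, Mcm2, Mcm5 and Mcm6. Of these 12, 10 are among the 22 lower genes, and their low ratios follow in part from that choice. G1 and G1/S genes (Cdk4, Ccnd3, Ccnd1 and others) stood at 7.86 to 8.56 in the class and at 12.7 to 13.7 in the S-phase cells.

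The class, the S-phase cells and the other cells shared a myogenic background. The myogenic progenitor list summed to 19.6 to 21.6 UMIs per 10000 in the class, 21.1 to 21.8 in the S-phase cells and 24.1 to 25.8 in the other gated cells, where all 4 libraries lay above all 4 of the class. Pax7, the factor of the muscle stem cell, was at 0.786, 1.02, 0.962 and 0.880 UMIs per 10000 in the class against 1.09, 1.34, 1.29 and 1.23 in the other gated cells. Each library's class was below its own other cells, at 0.716 to 0.759 of their level. Myod1, the factor of activated progenitors, was at 0.592, 0.758, 0.855 and 0.686 in the class and 0.434, 0.523, 0.445 and 0.519 in the others. Here each library's class was above its other cells, at 1.32 to 1.92 of their level. Myf5 was at 1.84 to 2.31 in the class and 2.23 to 2.39 in the others, and these ranges overlapped. Activation and matrix genes (Lgals1, Spp1, Col3a1, Col1a1, Postn and others) were at 86.2 to 109 in the class and 94.4 to 108 in the others.

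**Figure D2:**
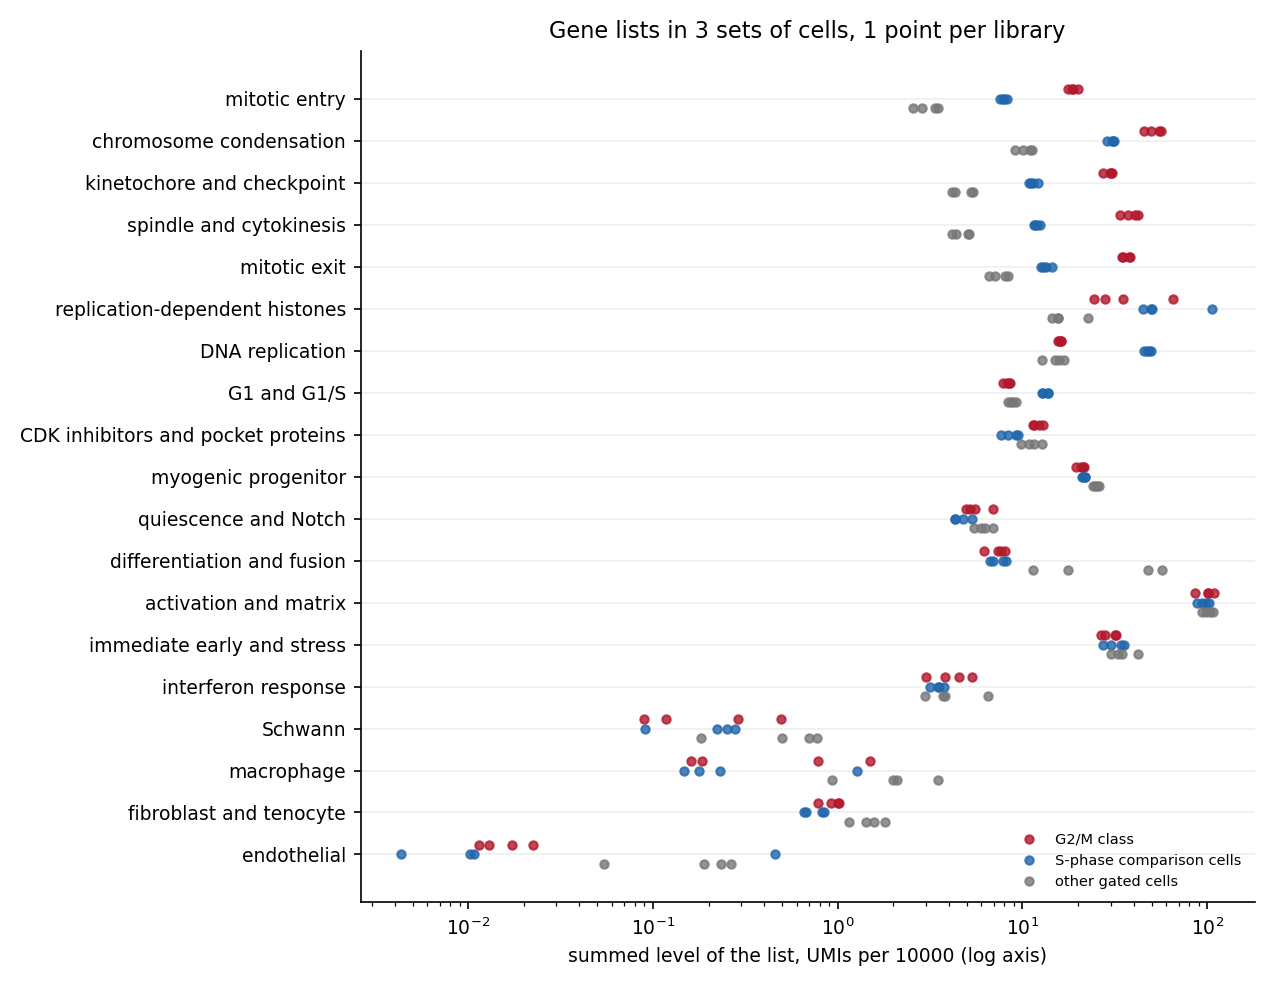
Summed level of each gene list in UMIs per 10000 (log axis) in the G2/M class, the S-phase comparison cells and the other gated cells, with 1 point for each library. The mitotic lists separate the class from both references. The DNA replication list, which holds the genes that chose the S-phase cells, is highest in those cells, which are also part of the other gated cells. The myogenic progenitor list lies at 19.6 to 25.8 in all 3 sets.

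Inhibitors of the cycle did not share 1 pattern. Cdkn1c (p57) was lower in the class than in the other gated cells of the same library, at 0.523 to 0.797 of their level, and Cdkn1a (p21) was higher, at 1.24 to 1.62 of their level. The CDK inhibitor and pocket protein list had 7 genes at 0.5 UMIs per 10000 or more. Of these, 3 were at least 2-fold higher in the class than in the other gated cells in all 4 libraries. Over all 3283 genes at that level the share was 4.42%. The list as a whole summed to 11.4 to 12.98 in the class and 9.80 to 12.7 in the others.

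Within the class, members differed along the score, and the largest span was that of the replication-dependent histone genes, whose mRNAs are made in S phase and destroyed at its end. These mRNAs normally carry no poly(A) tail, while the assay captures poly(A), so their counts are a part of the total of unknown size. The list of 63 such genes was assembled after the class had been examined. In the lowest tertile of the score (201 cells, 16.07 to 24.3) they summed to 61.9 UMIs per 10000, in the middle tertile (200 cells) to 32.1 and in the highest (201 cells, 37.5 to 140.7) to 6.78. The ratio of the highest to the lowest tertile was 0.107, 0.101, 0.124 and 0.0928 in the 4 libraries, so that every library gave a value near 0.1. Depth did not move with it, since median UMI counts were 45597, 47896 and 46546 in the lowest, middle and highest tertile.

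Single histone genes followed the sum with 1 exception. H1f5, a linker histone, stood at 11.6, 5.21 and 0.635 UMIs per 10000 from the lowest to the highest tertile. H2ac24, an H2A gene, stood at 13.4, 6.36 and 1.03, and H4c4, an H4 gene, at 5.05, 3.06 and 0.654. H2bc4 was the exception among the 14 histone genes at 0.5 or more, with 0.655, 0.851 and 0.995. Slbp, the protein that binds the stem loop of histone mRNA, stood at 1.29, 0.825 and 0.425. The DNA replication list stood at 22.1, 14.5 and 10.6 UMIs per 10000 from the lowest to the highest tertile, with Pcna at 1.68, 0.938 and 0.501.

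The mitotic lists ran the opposite way to different degrees. Spindle and cytokinesis genes stood at 28.6, 34.9 and 49.9 UMIs per 10000, a ratio of highest to lowest of 1.66 to 1.81 across libraries, and chromosome condensation genes at 46.5, 48.6 and 56.7, a ratio of 1.15 to 1.24. Gas2l3 had a ratio of 3.202 to 4.01, Arl6ip1 of 2.74 to 2.92 and Cenpe of 2.21 to 2.45. Top2a, the decatenating topoisomerase, had a ratio of 1.07 to 1.40 and Mki67 of 1.28 to 1.60. These common proliferation markers thus separated low-scoring from high-scoring members little. Ccna2 (cyclin A2), which is destroyed early in mitosis as a protein, had a ratio of 1.31 to 1.60. The myogenic progenitor list was nearly level at 20.4, 20.7 and 21.1.

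Cdkn1c and Pax7 were higher at the top of the score. Cdkn1c stood at 3.34, 3.16 and 6.67 UMIs per 10000 from the lowest to the highest tertile, with a ratio of 1.23 to 2.57 across libraries. Pax7 stood at 0.744, 0.814 and 1.12, with a ratio of 1.22 to 1.72. Cdkn1a stood at 1.98, 1.73 and 1.33, with a ratio below 1 in all 4 libraries (0.481 to 0.871). Over all gated cells, Cdkn1c was at 9.59 in the 2519 cells without a score UMI, at 2.17 in the bin of 484 cells with a median score of 4.41, and at 6.67 in the highest tertile of the class. Histone genes were at 1.73 in the cells without a score UMI and highest, at 67.8, in the 484 cells just below the class. Cells without a score UMI had a median of 24494 UMIs, the lowest of the bins, beside 42782 in the bin just below the class.

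**Figure D3:**
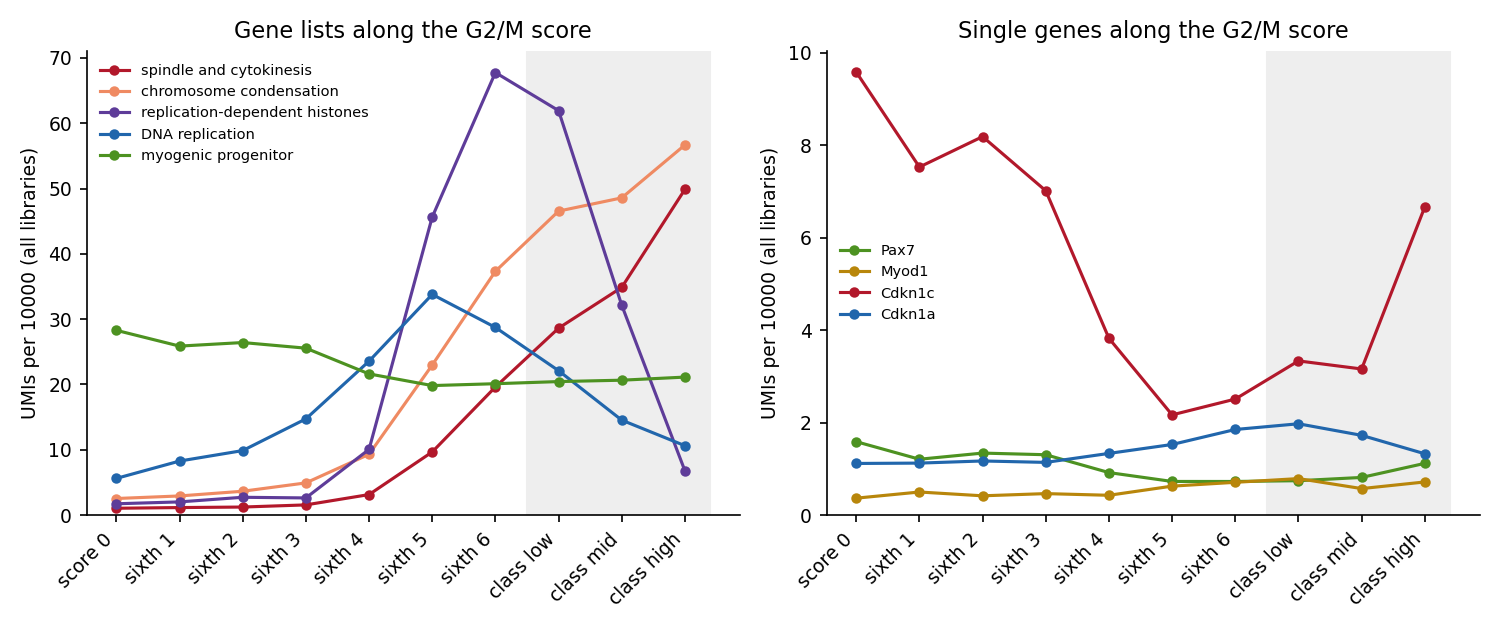
Levels in UMIs per 10000, all libraries pooled, in gated cells ordered by the G2/M score: cells with score 0, equal bins of the other cells outside the class, and the tertiles of the class (shaded). Histone genes peak at 67.8 just below the class and reach 6.78 in its highest tertile, while Cdkn1c has its lowest level of 2.17 in the bin with a median score of 4.41.

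The first comparison of genotypes asked whether the share of progenitors in G2 and mitosis differed. It was 11.5% (95% Wilson interval 10.3 to 12.99, counting error only) in Pax7Cre replicate 1 and 9.59% (8.05 to 11.4) in Pax7Cre replicate 2. In miR-501KO it was 9.32% (7.81 to 11.1) in replicate 1 and 8.68% (7.36 to 10.2) in replicate 2. Both miR-501KO libraries were below both Pax7Cre libraries, and the intervals of all but the extreme pair of libraries overlapped. The means were 10.6% ± 0.979 (SEM, n = 2) and 8.999% ± 0.324 (SEM, n = 2), a difference of -1.57 percentage points with p = 0.333 in a two-sided exact permutation test, the smallest p that 2 against 2 libraries allow. When each cell was thinned to 5000 UMIs before scoring, the shares were 12.3%, 9.51%, 9.65% and 9.67%, and the groups overlapped (exact permutation p = 1). In the same order, the requirement of no Cd74 UMI kept 2767 of 3086, 1518 of 1729, 1705 of 2722 and 1887 of 2074 cells. The largest loss was thus in miR-501KO replicate 1, and genotype comparisons with those cells kept were not made.

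**Figure D4:**
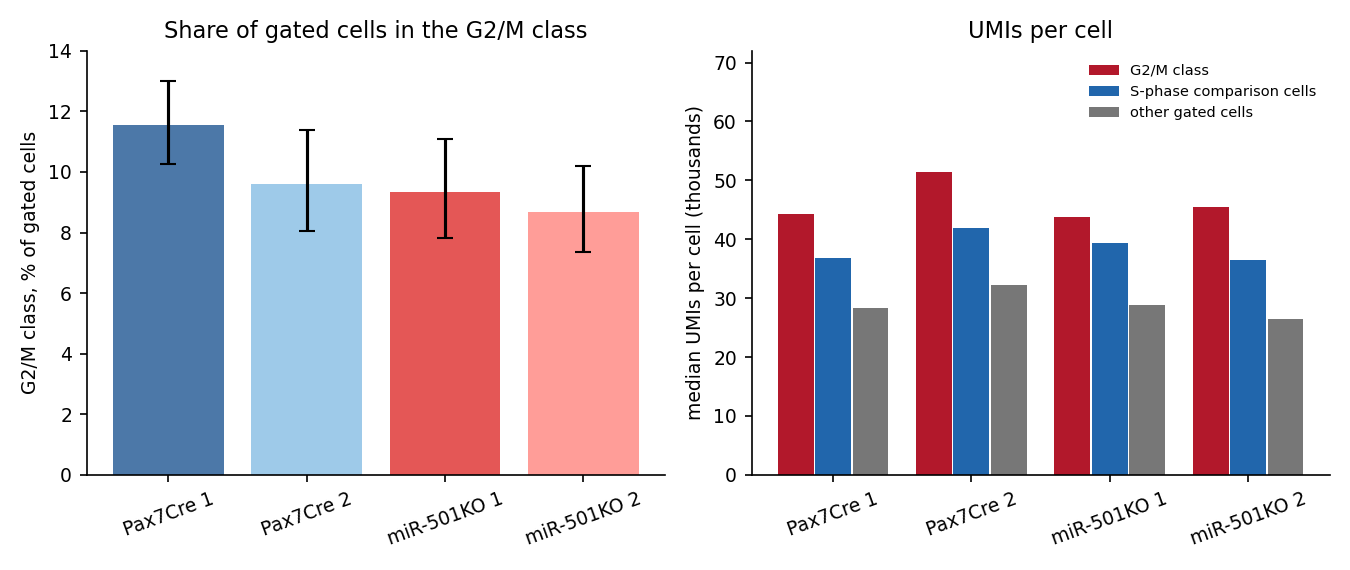
Left, share of gated cells in the G2/M class in each library (bars from 0, error bars 95% Wilson intervals for counting error); right, median UMIs per cell in the class, the S-phase comparison cells and the other gated cells. Shares run from 8.68% to 11.5%, and class cells have the highest median in every library.

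Pax7 detection in the class was compared after thinning each cell to 5000 UMIs. A Pax7 UMI was then found in 30.5%, 47.0%, 31.0% and 31.3% of members in Pax7Cre replicates 1 and 2 and miR-501KO replicates 1 and 2. Pax7Cre replicate 2 stood above the others, and the groups overlapped (exact permutation p = 1, difference -7.57 points). Within run 1 the difference was 0.521 points and within run 2 it was -15.7 points. Without thinning the shares were 84.8%, 91.3%, 75.2% and 81.7%, with both miR-501KO libraries below both Pax7Cre libraries (exact permutation p = 0.333). In Schwann-marked gated cells outside the class, which should lack Pax7, 3 of 165 (1.82%, median 11187 UMIs) held a Pax7 UMI after thinning, far below the 33.9% of the class (median 46946 UMIs).

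Gene levels in the class were then compared between genotypes on UMI sums per library, leaving out the genes the rule used. Except in fits said to share the spread across genes, the p-values measure the spread between libraries of 3 pooled mice. With edgeR's quasi-likelihood test and Benjamini-Hochberg adjustment, 0 of 11660 genes passed an adjusted p of 0.05, a background of 0%, with 361 genes (3.1%) at an unadjusted p under 0.05. DESeq2 called 4 of 17288 genes (0.0231%). With the replicate number as a block, since the labels place equal numbers in 1 run, edgeR called 87 genes (0.746%). Of these, 80 (0.686%) were higher and 7 (0.06%) lower in miR-501KO. In this fit the p-values rested on a spread shared across genes and not on each gene's own spread between libraries. Without the 38 members that carried 3 or more markers of another cell type, 1 gene (0.00874%) was called without the block and 9 (0.0786%) with it, and 8 of the 9 were among the 87. With one library left out, edgeR called 78 genes without Pax7Cre replicate 1, 78 without Pax7Cre replicate 2, 20 without miR-501KO replicate 1 and 24 without miR-501KO replicate 2. Counts of the same depth were simulated with 1 biological coefficient of variation (0.127) for all genes and no run effect. There, 74% of 200 genes changed 2-fold and 95.5% of 200 changed 4-fold were recovered by the test without the block. Recovery with a spread that varies between genes was not tested, so these shares do not give the power in the real counts.

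The mitotic programme itself showed no called difference between genotypes in the test without the block. With the block 1 of 81 genes was called, beside 0.746% of all genes tested. Of the 81 tested genes of the 5 lists, 48 had a higher and 33 a lower estimate in miR-501KO, with a median log2 fold change of 0.02 beside -0.0019 over all genes. In 7 both miR-501KO libraries were above both Pax7Cre libraries and in 5 below, against 16.9% and 9.86% of all genes tested. The called gene was Ube2s, the chain-extending partner of Ube2c (log2 fold change 0.72 ± 0.20 (SE) with the block, adjusted p = 0.0413 in edgeR's quasi-likelihood test). Its levels were 0.235, 0.414, 0.641 and 0.432 UMIs per 10000, so both Pax7Cre libraries were below both miR-501KO libraries. Without cells marked as another type the estimate with the block was 0.78, with an edgeR adjusted p of 0.334. Cdk1, the kinase of mitotic entry, stood at 4.44, 5.14, 4.004 and 4.85 UMIs per 10000 and overlapped between groups. Mki67 stood at 6.03, 7.43, 9.58 and 6.55 and overlapped as well. Log2 fold changes (SE) from edgeR without the block were -0.15 (0.16) for Cdk1, 0.22 (0.18) for Mki67, -0.05 (0.15) for Top2a, 0.09 (0.14) for Ccna2 and -0.10 (0.13) for Plk1, all with an adjusted p of 0.9999.

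Cdkn1c, the most abundant gene of the CDK inhibitor list, was at 5.68 and 4.23 UMIs per 10000 in the Pax7Cre class and at 2.88 and 3.07 in the miR-501KO class. Both miR-501KO libraries were below both Pax7Cre libraries, and the same held in the other gated cells (7.13 and 8.08 against 5.14 and 5.84). In the S-phase cells the values were 3.13 and 3.50 against 1.76 and 2.81, again without overlap. The log2 fold change in the class was -0.78 ± 0.18 (SE), with an adjusted p of 0.778 in edgeR's quasi-likelihood test, 0.0413 with the block and 0.0165 in DESeq2. Over the 16 alternatives the change ran from -1.12 to -0.52 and its adjusted p from 0.000339 to 0.99997, under 0.05 in 4. Without cells marked as another type the estimate with the block was -0.87 instead of -0.76, with an edgeR adjusted p of 0.173. Members with a Cdkn1c UMI numbered 227, 105, 98 and 110. Cdkn1a pointed the other way, at 1.26 and 1.83 in Pax7Cre and 2.005 and 2.06 in miR-501KO, and passed in none of the 16 alternatives (log2 fold change 0.36 ± 0.17 (SE), edgeR adjusted p = 0.9999).

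Myogenic regulators showed no called difference. The log2 fold changes (SE) from edgeR were -0.01 (0.15) for Pax7, -0.08 (0.14) for Myf5 and 0.15 (0.16) for Myod1, with no gene called among the 12 of the myogenic progenitor list under either edgeR fit. Clcn5, the host gene of miR-501, was at 1.31, 1.55, 1.67 and 1.21 UMIs per 10000, and the groups overlapped (log2 fold change -0.03 ± 0.16 (SE), edgeR adjusted p = 0.9999). Esrrg, a nuclear receptor gene that the study examined as a target of miR-501, had 2, 0, 0 and 2 UMIs in the class, under the 3 counts set as a floor in every library, so no fold is given.

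Among the genes with the smallest p-values and a higher level in miR-501KO were Kcna1, Ednrb, Gpm6b and Art3, none of them called by the filtered edgeR test without the block or by DESeq2. With no filter on low counts edgeR called all 4, with adjusted p between 4.13e-08 and 1.27e-06. Those p-values also rested on a spread shared across genes. The log2 fold changes (SE) were 3.904 (0.56) for Kcna1, a potassium channel of nerve, 1.36 (0.23) for Ednrb, an endothelin receptor, 1.17 (0.20) for Gpm6b, a membrane glycoprotein of the proteolipid family, and 1.32 (0.23) for Art3. Kcna1 stood at 0.0032 and 0.0014 UMIs per 10000 in Pax7Cre and at 0.038 and 0.045 in miR-501KO. Its fold thus rests on a very low control level, and without cells marked as another type it was not left to test. Ednrb turned to -0.74 when only cells with a Pax7, Myf5 or Myod1 UMI were kept, and Gpm6b went to 0.08 without cells marked as another type. All 6 tested markers of the Schwann list were higher in both miR-501KO libraries, beside 16.9% of all genes tested, and 5 passed with the block, beside 0.746% of all genes. The Schwann list summed to 0.0894 and 0.117 UMIs per 10000 in the Pax7Cre class and to 0.288 and 0.494 in the miR-501KO class, beside 1, 1, 3 and 6 marked members. Without the marked members no gene of that list was left to test. The part of these cells in the other differences between genotypes was tested only by leaving them out.

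On the lower side the 5 named genes were AA467197, Cdkn1c, Slc40a1, Gm43890 and Gins3, none of them called by the filtered edgeR test without the block. AA467197 had 124 and 90 UMIs in the Pax7Cre class and 6 and 22 in the miR-501KO class, at 0.0999, 0.129, 0.0115 and 0.0328 UMIs per 10000. Both miR-501KO libraries were below both Pax7Cre libraries, in 34, 13, 4 and 11 members with a UMI. Its log2 fold change was -2.32 ± 0.39 (SE), with an adjusted p of 0.269 in edgeR and 0.0304 in DESeq2, and it was called in 8 of 16 alternatives, with an adjusted p between 7.47e-10 and 0.99996. Slc40a1, the iron exporter, had -0.75 (0.20), Gm43890 -1.02 (0.28) and Gins3, a subunit of the replicative helicase, -1.04 (0.29), each with an edgeR adjusted p of 0.9999.

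Histone genes differed between libraries more than between genotypes. They summed to 24.3 and 34.9 UMIs per 10000 in the Pax7Cre class and to 65.4 and 28.1 in the miR-501KO class. miR-501KO replicate 1 alone stood high, and it did so in the S-phase cells too (106, beside 45.03 to 50.1 in the others). Of 50 histone genes tested, 44 had a higher estimate in miR-501KO and 9 passed with the block (0.746% of all genes did), while their median log2 fold change of 0.62 became -0.20 without miR-501KO replicate 1. H2ac24 stood apart in another library, at 1.34 in Pax7Cre replicate 1 against 10.2, 16.7 and 7.02 in the rest. The share of the class in the lowest score tertile was 35.0%, 30.4%, 37.2% and 29.8% in the order above.

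**Figure D5:**
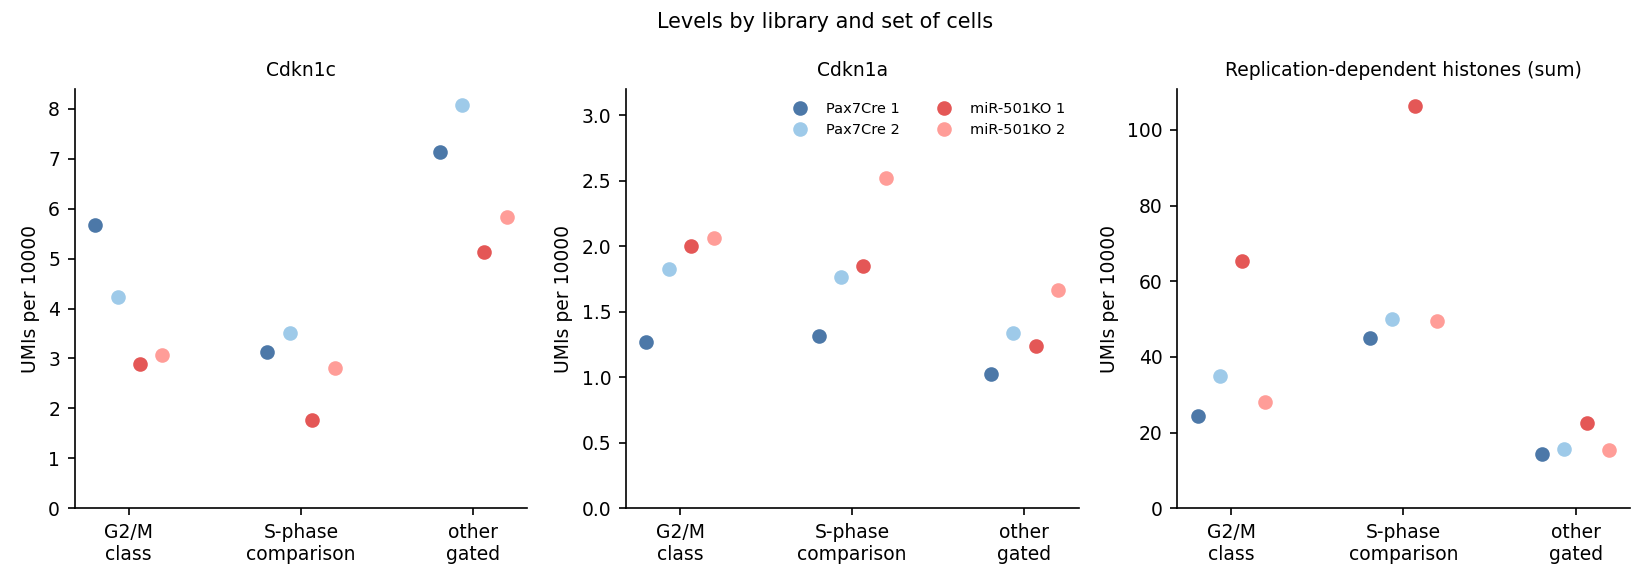
Level in UMIs per 10000 of Cdkn1c, Cdkn1a and the sum of the replication-dependent histone genes in the G2/M class, the S-phase comparison cells and the other gated cells, with 1 point for each library. Cdkn1c is lower in both miR-501KO libraries in all 3 sets of cells, and the histone sum is high in miR-501KO replicate 1 (65.4 in the class).

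Other lists gave these counts in the class. In the immediate early and stress list 6 of 9 genes had a higher estimate and 4 had both miR-501KO libraries on top, with a median log2 fold change of 0.27, and 1 gene passed with the block. In the differentiation and fusion list it was 10 of 14 and 6, with a median of 0.23, and 2 genes passed with the block. The interferon list had 6 of 9 and 2, with a median of 0.19 and 2 genes past the test with the block, 1 in each direction. The mural list had 7 of 8 and 2, with a median of 0.65, and 1 gene passed with the block. Over all genes tested, both miR-501KO libraries were on top in 16.9% and 0.746% passed with the block. The medians moved with single libraries. Without miR-501KO replicate 2 they were 0.066 for the immediate early, -0.25 for the interferon and -0.032 for the mural list, and without Pax7Cre replicate 2 they were 0.068 for the immediate early, 0.025 for the differentiation, 0.41 for the interferon and 0.31 for the mural list. The interferon median was 0.34 without miR-501KO replicate 1. Without Pax7Cre replicate 1 they were 0.17 for the immediate early, 0.52 for the differentiation, -0.033 for the interferon and 1.12 for the mural list. In the 26 DNA replication genes 12 had a higher and 14 a lower estimate, with a median of -0.02, and none passed under either edgeR fit.

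The last comparison asked whether the genotype difference in the class was unlike that in the S-phase cells of the same libraries. An interaction term with the library as a block called 3 of 12091 genes (0.0248%) with edgeR's quasi-likelihood test, and 669 had an unadjusted p under 0.05. In counts simulated for this comparison with the same common spread, 23.5% of 2-fold and 89.5% of 4-fold differences were recovered. Eno3, the muscle enolase, was at 1.59, 1.04, 0.952 and 1.002 UMIs per 10000 in the class and at 1.68, 1.25, 1.86 and 1.93 in the S-phase cells. It was therefore lower in miR-501KO in the class and higher in miR-501KO in the S-phase cells, with a log2 difference of -0.83 ± 0.10 (SE) and an adjusted p of 0.0127. AA467197 had a log2 difference of -3.58 ± 0.42 (SE), with an adjusted p of 0.00857 in edgeR. It was at 0.0606, 0.0391, 0.0942 and 0.146 in the S-phase cells, where the groups stood in the opposite order to the class. Not called, but next by p, were Sostdc1, Arhgdib, Ctsc and Crym with a more positive difference in the class (adjusted p of 0.0509, 0.0962, 0.0962 and 0.119 in edgeR). Prkg2, Ctsl and Olfr655 had a more negative one (0.0962, 0.283 and 0.283 in edgeR) and were not called either. Sostdc1 had 0 UMIs in the Pax7Cre class and 38 in the miR-501KO class, beside 22 and 3 in the S-phase cells. Without cells marked as another type, Ctsc went from 1.23 to 0.013 and Arhgdib from 1.49 to 1.37. Sostdc1 and Crym were then not left to test. With all other gated cells as the reference, edgeR's interaction test called 0 genes, with 378 at an unadjusted p under 0.05. It called 16 genes without Pax7Cre replicate 1, 35 without Pax7Cre replicate 2, 100 without miR-501KO replicate 1 and 110 without miR-501KO replicate 2.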

How the data were processed

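Single cell RNA-seq counts were analysed from 4 libraries, 2 per group, each of sorted cells from 3 pooled mice. The authors deposited UMI counts per gene and cell, made with Cell Ranger (6.0.2 per the file headers; another version is named in the study's methods) from 10x 3′ libraries. The labels name GRCm39 as the build. No normalised values were used. The members, gene lists and tests were chosen with earlier results of these data known.

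Levels are summed UMIs of a gene per 10000 UMIs of the same cells. UMI sums per library were tested with edgeR 4.0.16 (R 4.3.3; TMM, filterByExpr, quasi-likelihood, no block) and with DESeq2 1.42.0 as an alternative, with Benjamini-Hochberg adjustment at 0.05. The 7 score genes, Cd74 and Myog were left out. Equal replicate numbers share a run in the labels, so a fit with the number as a block is given where it moves a count. Run differences correlated between groups at -0.0973 over genes. A chi-square test of replicate counts over genes gave 8.61 (Pax7Cre) and 11.1 (miR-501KO) per degree of freedom, so all 4 libraries were counted as separate samples. Shares were compared with exact two-sided permutation tests (scipy 1.17.1) and have Wilson intervals, and intervals and the floor of 3 counts cover counting error only. Cells were thinned with a fixed seed.

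The text names the score genes, up to 5 genes per list with the highest level in the class, the 15 largest and 10 smallest ratios to each reference set (in the library nearest to 1, among genes at 0.5 UMIs per 10000 or more), 5 genes per direction in each test whose change had 1 sign within run 1 and run 2 (called genes first, then by p), and 13 fixed genes. Ube2s, single genes along the score and the histone genes were chosen after their values were seen. Some genes that meet the rule are not reported here. Alternatives were the top 5% or 20%, a mitochondrial limit of 20%, removal of cells above 3 times the median UMI count, of cells without a myogenic UMI or of shared barcodes, other size factors, no filter, and each library left out. Removal of cells with 3 or more markers of another type was added after seeing the data. Scripts were tested on simulated data. Promoters and miRNAs are from RefSeq GRCm38.p6, a different build from the files, and were matched by symbol.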

Additional observations from a re-analysis of the deposited data

Results flagged for a closer look

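The genotype difference in the G2/M class was unlike that in the S-phase comparison cells for AA467197 and Eno3 by edgeR's interaction test. The difference for AA467197 was -3.58 (log2), and it was called in 11 of 15 alternatives. It was not called without cells above 3 times the median UMI count (-2.67, edgeR adjusted p = 0.197). For Eno3 the difference was -0.83 (log2), called in 10 of 15 alternatives. It was not called without cells marked as another type (-0.98, edgeR adjusted p = 0.176) or without cells above 3 times the median UMI count (-0.45, edgeR adjusted p = 0.9997). Neither gene was called with the top 5%, the top 20% or all other gated cells as the reference. There AA467197 was at -3.27, -1.48 and -2.87, and Eno3 at -0.65, -0.40 and -0.43.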

How the results depend on the processing

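The mean share of progenitors in G2 and mitosis was lower in miR-501KO under every setting of the score, gate, depth and denominator tried, with differences of -0.672 to -1.92 points, and of -0.916 to -2.23 points with one run left out. Within run 2 it was higher in miR-501KO with the top 20% (by 1.16 points) and after thinning (by 0.161 points), and the groups overlapped in both (exact permutation p = 1) and without cells of high UMI count (exact permutation p = 0.667). Pairing the libraries by replicate block gave the same -1.57 points. With so few pairs an exact permutation p cannot fall under 0.5, so the pairing decides nothing. The Pax7 share difference ran from -15.7 to 0.521 points with one run left out. Genes called between genotypes numbered 0, and 87 with the replicate block, 125 with no filter on low counts, 4 with DESeq2, 1 with the top 20%, 2 with only cells holding a Pax7, Myf5 or Myod1 UMI, 1 without cells marked as another type and 9 without them and with the block, and 20 to 78 with one library left out, where the lone library of a group is assumed to vary like the others. Called interactions numbered 3, and 92 with no filter, 5 without shared barcodes, 0 with the top 5%, the top 20% or all other gated cells (531, 562 and 378 genes at an unadjusted p under 0.05), and 16 to 110 with one library left out. Leaving out a whole run could not be fitted. Between genotypes, the p-values with the block, with no filter and without either Pax7Cre library rested on a spread shared across genes. The cause of these moves was not tested. Estimates near 0 changed sign with one library left out, with log2 ranges of -0.33 to 0.011 for Cdk1, -0.24 to 0.15 for Clcn5, -0.043 to 0.44 for Mki67, -0.21 to 0.042 for Myf5, -0.16 to 0.15 for Pax7 and -0.17 to 0.080 for Top2a. They also changed sign to 0.0107 for Clcn5 and -0.029 for Myod1 with the top 20%, 0.11 for Pax7 and 0.025 for Top2a with the top 5%, and 0.018 for Pax7 at 20% mitochondrial UMIs. With only cells holding a myogenic UMI, Clcn5 was 0.035, Ednrb -0.74, Myf5 0.0020, Pax7 0.12 and Top2a 0.0046. Without cells marked as another type, Clcn5 was 0.0071, Myf5 0.018 and Pax7 0.069, and with the block as well Myf5 was 0.016 and Pax7 0.072. The log2 ratio of the class to another set became 0.094 for G1 and G1/S genes (other gated cells), -0.042 for mural genes and 0.45 for histone genes (both S-phase cells) with the top 20%, and -0.68 for histone genes (other gated cells) with the top 5%. Of 456 values for named genes, 355 kept their direction and side of the threshold. At this depth 2-fold interactions were mostly missed in simulated counts.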
